A study of Mus musculus with 18 samples.

Results

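The immunity-related GTPases (IRG proteins) are GTP-binding proteins that mouse cells make in response to interferons. The 7 genes described here, Irgm1, Irgm2, Igtp, Iigp1, Tgtp1, Tgtp2 and Ifi47, were chosen by name as the family's established members, and they are 7 of the 50600 gene rows of the deposited table and 7 of the 16927 genes that passed the filter on low counts. No member was lost to that filter. In cells infected with parasites or bacteria that live inside a vacuole, the effector members bind GTP and gather on the vacuole membrane, where they help to break it open. The regulatory members Irgm1, Irgm2 and Igtp (also called Irgm3), which carry a methionine where the effectors carry a lysine in the first nucleotide-binding motif, sit on the cell's own membranes and hold the effectors in an inactive state there. Interferon gamma is the strongest known inducer of the family and type I interferon also induces it, so the genes serve as a readout of interferon signalling in mouse tissue.

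RNA was sequenced from whole tumors grown subcutaneously in C57BL/6 mice from B16F10, a mouse melanoma cell line. Tumors were injected with PBS, unloaded EVs (extracellular vesicles), free CDN2 (a cyclic dinucleotide agonist of STING, labelled CL656) or exoCDN2 (EVs loaded with CDN2), and collected 24 h after the last injection. A single dose was given of PBS, of EVs alone, of exoCDN2 holding 0.1 µg of agonist, or of CDN2 at 20 µg or 100 µg, and PBS, exoCDN2 and CDN2 (20 µg) were also given as 2 doses with 3 days between them. Each of these 8 groups held 2 tumors, and 2 further tumors given 2 doses of CDN2 have no amount in their labels and entered no comparison. The total of expected counts per tumor lay between 21608895 and 65983630. The 7 melanocyte lineage markers examined (such as Pmel, Tyr and Mlana) were above 0 in every tumor, with a summed normalized count of 326315 to 1064741. The tumors given 2 doses of CDN2 (20 µg) stood apart, with the lowest melanocyte sums (326315 and 543519), the highest sums of skeletal muscle markers (137869 and 65273) and the lowest correlation between the tumors of a group (r = 0.953 across 15404 genes). Each value comes from a whole tumor, in which fewer cells of a type and less RNA per cell cannot be told apart. The tumors with 2 doses were also taken later after the first injection than those with 1 dose, so the number of injections, the age of the tumor and any difference between collections cannot be told apart.

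Of the 7 genes, 6 lie on chromosome 11 in 2 stretches (GRCm38, GENCODE M21). Irgm1 (ENSMUSG00000046879) spans chr11:48861968-48871683 on the minus strand. The effector genes Tgtp1 (ENSMUSG00000078922, chr11:48985327-48994172), Tgtp2 (ENSMUSG00000078921, chr11:49057194-49064206) and Ifi47 (ENSMUSG00000078920, chr11:49076587-49096974) lie close to it. Igtp (ENSMUSG00000078853, chr11:58199556-58207591) and Irgm2 (ENSMUSG00000069874, chr11:58199618-58222782) overlap each other on the plus strand in the other stretch. Iigp1 (ENSMUSG00000054072) lies on another chromosome. Tgtp1 and Tgtp2 are near-identical copies, and 64.9% of the 150-base windows of the Tgtp1 transcripts and 68.4% of those of Tgtp2 also occur in another gene's transcripts, so the division of reads between them is uncertain. The corresponding share was 0.4% for Irgm2 and 0.7% for Igtp, and it was 0 for Irgm1, Iigp1 and Ifi47. Olfr56, an olfactory receptor gene, overlaps Tgtp1, Tgtp2 and Ifi47 in the annotation, and the sources used here do not give whether reads were counted by strand.

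Many genes that respond to interferon gamma carry a gamma-activated site (GAS) in their promoters, and many that respond to type I interferon carry an interferon-stimulated response element (ISRE). RefSeq promoters (GRCm38.p6, 250 bases before to 50 bases after the start) were at hand for 6 of the 7 genes, all but Iigp1. They were searched on both strands for GAS as TTCNNNGAA and for the ISRE core as GAAANNGAA. GAS was found in 4 of the 6 promoters and the ISRE core in 5, against 8.30% and 8.56% of all 32851 promoters of the table. The 250 bases before the start are shown for the 5 genes with a match, 5′ to 3′ on the gene's strand with the matches in capitals, because they show where the letters lie in each gene. They cover chr11:48871421-48871670 (Irgm1, minus strand), chr11:58214727-58214976 (Irgm2, plus strand), chr11:58199306-58199555 (Igtp, plus strand), chr11:48992247-48992496 (Tgtp1, minus strand) and chr11:49064213-49064462 (Tgtp2, minus strand).
Irgm1: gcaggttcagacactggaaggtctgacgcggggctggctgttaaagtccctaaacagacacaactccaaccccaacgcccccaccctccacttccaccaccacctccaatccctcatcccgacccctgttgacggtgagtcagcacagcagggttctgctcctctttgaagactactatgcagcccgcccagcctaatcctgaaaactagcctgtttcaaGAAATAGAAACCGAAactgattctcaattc
Irgm2: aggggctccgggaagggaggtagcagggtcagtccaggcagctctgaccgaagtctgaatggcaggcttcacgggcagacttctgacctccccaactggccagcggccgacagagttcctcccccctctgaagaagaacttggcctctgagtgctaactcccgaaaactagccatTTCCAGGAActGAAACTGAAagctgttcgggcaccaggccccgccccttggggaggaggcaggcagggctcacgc
Igtp: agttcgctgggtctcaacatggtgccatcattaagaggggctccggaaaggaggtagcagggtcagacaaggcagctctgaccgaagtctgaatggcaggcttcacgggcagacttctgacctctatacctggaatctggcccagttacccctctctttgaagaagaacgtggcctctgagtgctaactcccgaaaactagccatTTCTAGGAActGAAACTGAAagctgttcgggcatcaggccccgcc
Tgtp1: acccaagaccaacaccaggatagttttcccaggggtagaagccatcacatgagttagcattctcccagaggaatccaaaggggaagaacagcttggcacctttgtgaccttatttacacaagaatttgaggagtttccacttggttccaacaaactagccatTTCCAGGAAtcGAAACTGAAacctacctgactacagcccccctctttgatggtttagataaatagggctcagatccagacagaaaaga
Tgtp2: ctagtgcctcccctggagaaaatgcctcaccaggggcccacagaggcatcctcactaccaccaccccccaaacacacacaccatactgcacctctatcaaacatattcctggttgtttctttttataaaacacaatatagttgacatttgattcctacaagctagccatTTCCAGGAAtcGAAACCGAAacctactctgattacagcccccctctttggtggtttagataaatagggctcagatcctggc

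In Irgm2, Igtp, Tgtp1 and Tgtp2 a GAS match was followed by an ISRE core match that started 11 bases further on, as TTCCAGGAA and GAAACTGAA in Irgm2 and Tgtp1, TTCTAGGAA and GAAACTGAA in Igtp, and TTCCAGGAA and GAAACCGAA in Tgtp2. The pair began 75 bases before the start in Irgm2, 45 in Igtp, 88 in Tgtp1 and 81 in Tgtp2. This spacing was noticed after the sequences had been read. It occurred in 8 of the 32851 promoters (0.024%), and the other promoters that held it belong to Adar, Gm12185, LOC115488470 and Olfr382. Irgm1 held no GAS match and 2 ISRE core matches, GAAATAGAA and GAAACCGAA, which overlap each other and began 30 and 24 bases before the start. The Ifi47 promoter held neither. The promoters of neighbours were alike over their full length, with 72.8% identity between Irgm2 and Igtp and 66.8% between Tgtp1 and Tgtp2, so their matches are not separate observations. These matches describe letters only, and no binding was measured.

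**Figure D1:**
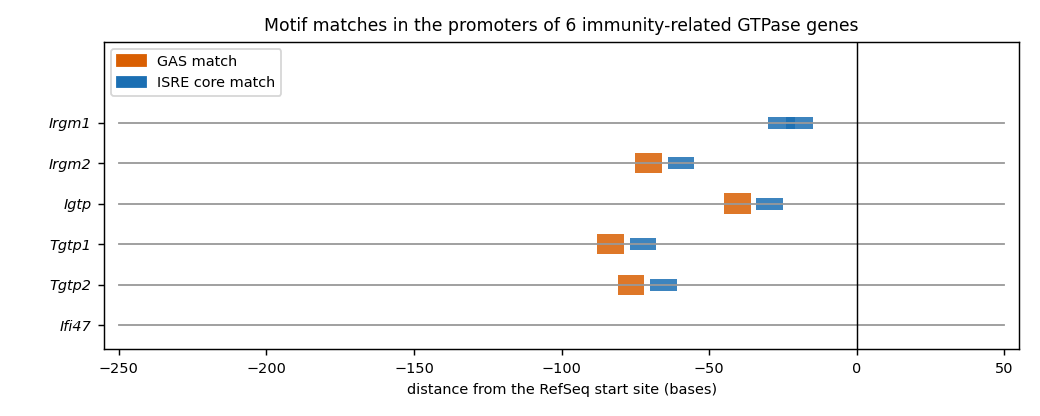
Positions of GAS matches (orange) and ISRE core matches (blue) in the RefSeq promoters of 6 genes, with distance from the start site in bases on the horizontal axis and 1 line per gene. The 4 genes with both matches have them side by side within 88 bases of the start, Irgm1 has 2 overlapping ISRE core matches, and Ifi47 has none.

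The members were already expressed in tumors injected once with PBS. Irgm1 had normalized counts of 14059 and 16131 in the PBS tumors, and Irgm2 had 4873 and 5070. Igtp had 8433 and 9961. The effectors were in the same range, with 8883 and 10499 for Iigp1, 10008 and 12103 for Tgtp1, 13224 and 14765 for Tgtp2, and 5739 and 6412 for Ifi47. To set levels of different genes roughly side by side, counts were divided by the kilobases of a gene's annotated exons, merged over its transcripts. The lengths of the transcripts actually expressed were not used, so the order of the genes also depends on the annotation. On this scale the mean normalized counts of these tumors ran from 4763 for Tgtp2 and 4548 for Igtp down to 1664 for Iigp1 and 1347 for Irgm2. Over all 18 tumors, Igtp was the highest of the 7 per kilobase in 12, Tgtp2 in 5 and Irgm1 in 1. The 7 genes together took 0.164% and 0.187% of all counts in the PBS tumors.

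One dose of unloaded EVs was compared with PBS to see what the vesicles alone did. Every member had a lower mean with EVs than with PBS, yet none was called changed. The members' median log2 fold change was -1.80, beside 0.001 for all genes tested. Irgm1 had normalized counts of 4370 and 6760, Igtp 1693 and 3606, and Tgtp1 1158 and 3954. These lay below the PBS tumors by 1.45 ± 0.34 (SE) for Irgm1, 1.80 ± 0.39 for Igtp and 2.12 ± 0.62 for Tgtp1 on the log2 scale. The adjusted p-values of edgeR's quasi-likelihood test lay between 0.381 (Irgm2) and 0.977 (Tgtp1 and Tgtp2). To be called, a gene had to pass an adjusted p below 0.05 with more than a 2-fold ratio, and 0 of the 7 members and 0% of the 16927 genes tested were called lower. All 7 members had an unadjusted p under 0.05, as did 540 of the genes tested. DESeq2 called 4 of the 7 lower (Irgm1, Irgm2, Igtp and Iigp1), and 31 of all genes in either direction. The summed counts of 8 markers of T and NK cells (such as Cd3e, Cd8a and Nkg7) were 122 and 332 with EVs and 359 and 463 with PBS, with no marker of the list at 0 in these tumors. Keratinocyte markers summed to 2152 and 8 with EVs and 4831 and 2596 with PBS, and the part of these cells in the difference was not tested.

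One dose of exoCDN2 raised the 3 regulatory members. Irgm1 rose to 46724 and 55310, Irgm2 to 20559 and 25438, and Igtp to 24843 and 36815, and for each the exoCDN2 tumors lay above the PBS tumors. The log2 fold change was 1.72 ± 0.34 for Irgm1 (adjusted p = 0.0164), 2.17 ± 0.25 for Irgm2 (adjusted p = 0.000488) and 1.71 ± 0.39 for Igtp (adjusted p = 0.0323; edgeR). No effector member was called. Iigp1 had 17792 and 29473 (log2 fold change 1.25 ± 0.46) and Ifi47 had 10722 and 13806 (0.98 ± 0.36), both above PBS in both tumors with an adjusted p of 0.191. Tgtp1 overlapped the PBS tumors at 9107 and 22701 (0.49 ± 0.60, adjusted p = 0.768), and Tgtp2 had 15467 and 32187 (0.73 ± 0.52, adjusted p = 0.563). Thus 3 of 7 members were called higher, against 2.20% of all genes tested. When any 1 of the 4 tumors was left out, only Irgm2 was still called. Neutrophil markers summed to 2730 and 1672 with exoCDN2 and 188 and 198 with PBS (3 of 6 called higher), T and NK cell markers to 109 and 191 against 359 and 463 (0 of 8 called), and keratinocyte markers to 69 and 10 against 4831 and 2596 (0 of 5 called). Of 6 dendritic cell markers, only Ccr7 was called higher, while the median log2 fold change of the 6 was -0.30. The part of these cells was not tested.

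One dose of free CDN2 (20 µg) raised 5 members, and 6 of the 7 had their highest group mean there. Igtp rose to 36950 and 55384, by 2.32 ± 0.40 on the log2 scale (adjusted p = 0.00593). Irgm2 rose to 20417 and 21653 (2.07 ± 0.25, adjusted p = 0.000625) and Irgm1 to 43259 and 64675 (1.83 ± 0.34, adjusted p = 0.0109). Among the effectors, Iigp1 rose to 27971 and 44577 (1.89 ± 0.46, adjusted p = 0.0417) and Ifi47 to 15099 and 23317 (1.65 ± 0.36, adjusted p = 0.0231). Tgtp1 (28833 and 48557) and Tgtp2 (41770 and 57585) lay above PBS in both tumors with similar log2 fold changes of 1.80 ± 0.61 and 1.82 ± 0.53, but with wider errors their adjusted p-values were 0.157 and 0.0895 (edgeR). The background share of genes called higher was 2.26%. Without either PBS tumor, or without the second CDN2 tumor, only Irgm2 was still called. Endothelial markers summed to 1259 and 1367 with CDN2 and 3436 and 3527 with PBS, and 3 of 4 (Cdh5, Kdr and Pecam1) were called lower. Neutrophil markers summed to 566 and 1335 against 188 and 198, with 2 of 6 called higher, T and NK cell markers to 269 and 489 against 359 and 463, with 0 of 8 called, and keratinocyte markers to 231 and 41 against 4831 and 2596, with 0 of 5 called. Their part was not tested.

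CDN2 at 100 µg was followed by lower levels than CDN2 at 20 µg. Irgm2, with 9896 and 11828, was the only member called higher than PBS (log2 fold change 1.11 ± 0.25, adjusted p = 0.0319), against 1.82% of all genes, and it was not called once any 1 of the 4 tumors was left out. Irgm1 had 34249 and 33827 (1.16 ± 0.34, adjusted p = 0.101), and Igtp had 14640 and 17520 (0.79 ± 0.38). Tgtp1, with 5019 and 6974, lay below both PBS tumors (-0.90 ± 0.60, adjusted p = 0.569), and Tgtp2, with 11372 and 15309, overlapped them. In the direct comparison of the amounts, all 7 members had lower means at 100 µg (median log2 difference -1.52, beside 0.01 for all genes). The log2 differences ran from -0.67 ± 0.34 for Irgm1 through -1.52 ± 0.39 for Igtp and -1.90 ± 0.53 for Tgtp2 to -2.69 ± 0.64 for Tgtp1. No member reached the threshold (lowest adjusted p = 0.0782, for Tgtp1, in edgeR), while 6 had an unadjusted p under 0.05 and DESeq2 called 5. The share of all genes called lower was 0.224%. Ifnb1, which encodes interferon beta, had 1700 and 1536 normalized counts at 100 µg and 580 and 2303 at 20 µg. T and NK cell markers summed to 53 and 70 at 100 µg (Cd8a and Ncr1 at 0 in 1 tumor), against 269 and 489 at 20 µg, with 1 of 8 called lower. With PBS they summed to 359 and 463, and 4 of 8 (Cd3d, Cd3e, Cd8a and Nkg7) were called lower at 100 µg than with PBS. Of all genes, 0.620% were called lower there. Endothelial markers summed to 3352 and 4507 at 100 µg against 1259 and 1367, with 3 of 4 called higher, and the part of these cells in the difference was not tested.

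**Figure D2:**
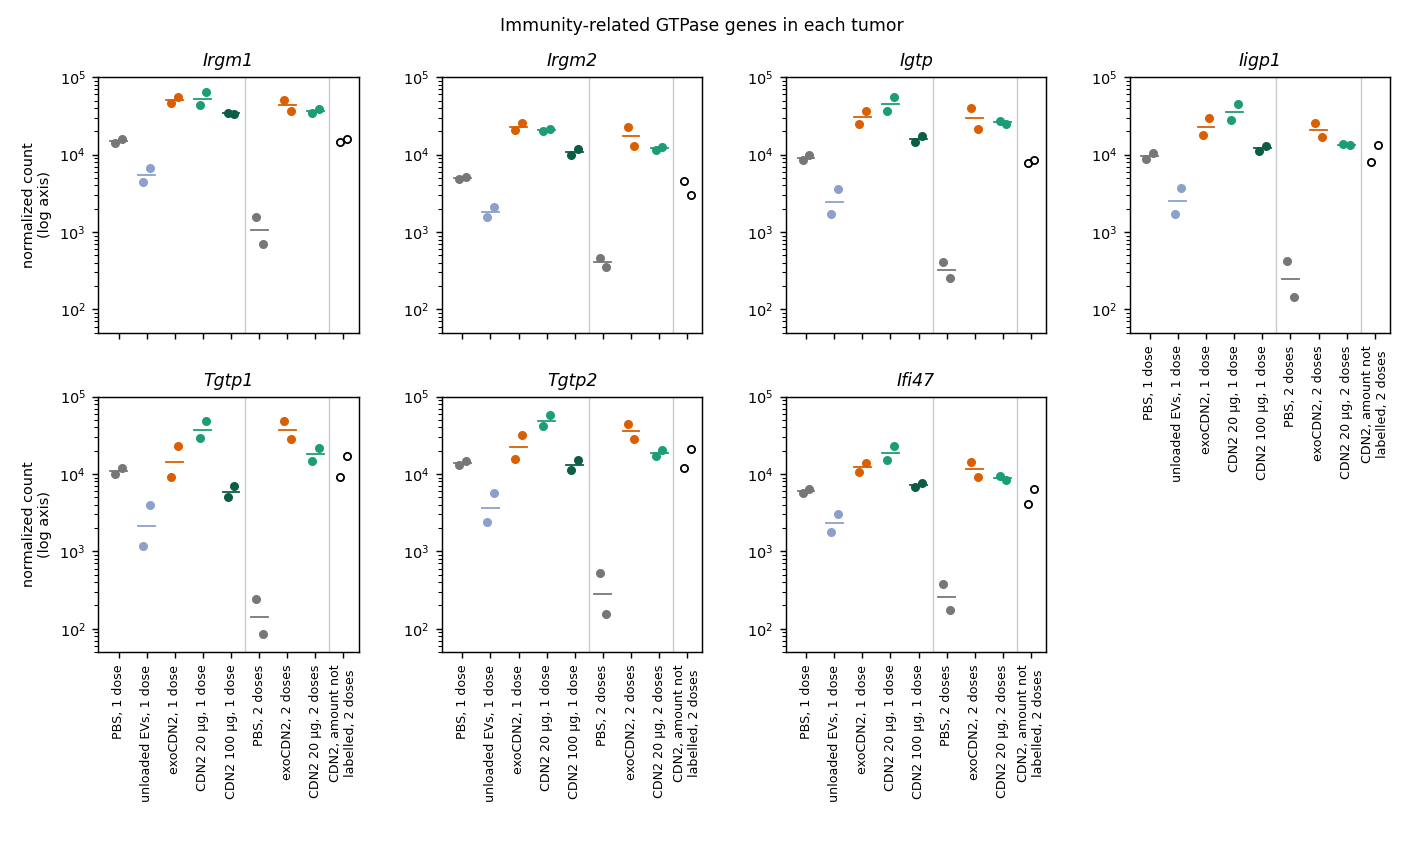
Normalized counts (log axis) of the 7 genes in each of 18 tumors, by group, with 1 point per tumor and a line at the geometric mean of each group; open points are the 2 tumors whose labels give no amount. In every panel the PBS tumors with 2 doses are the lowest, at 85 to 1581, and all 4 exoCDN2 tumors lie above them, at 9107 to 55310.

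Against unloaded EVs, exoCDN2 raised all 7 members after 1 dose. The log2 fold changes ran from 2.33 ± 0.37 for Ifi47 to 3.64 ± 0.27 for Irgm2, and the edgeR adjusted p-values from 1.23e-05 (Irgm2) to 0.0453 (Tgtp1). The members' median log2 fold change was 3.10, beside -0.04 for all genes, and 2.52% of all genes were called higher. Tgtp1 and Tgtp2 were not called without the first EV tumor or without the second exoCDN2 tumor, which left 5 of 7. Neutrophil markers summed to 2730 and 1672 with exoCDN2 and 482 and 160 with EVs (0 of 6 called), and their part was not tested.

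The amounts of agonist differ between exoCDN2 (0.1 µg) and CDN2 (20 µg), so the direct comparison sets these doses side by side and not the carriers at a matched amount. After 1 dose, no member was called different (edgeR), 0 of 7 had an unadjusted p under 0.05, and DESeq2 called 0. For Irgm1 the difference was -0.11, with a 95% confidence interval of -0.83 to 0.62 on the log2 scale, and for Irgm2 it was 0.10 (-0.43 to 0.63). The other members had lower means with exoCDN2, from -0.61 (-1.43 to 0.22) for Igtp to -1.31 (-2.63 to 0.02) for Tgtp1, and these intervals include differences of more than 2-fold. Of all genes, 0.408% were called lower with exoCDN2. Of 4 endothelial markers, 3 were called higher with exoCDN2 (sums 3629 and 3791 against 1259 and 1367), and their part was not tested.

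The members were far lower in PBS tumors given 2 doses. There, Irgm1 had 1581 and 694, Irgm2 463 and 357, and Igtp 408 and 253. Iigp1 had 417 and 144, Tgtp1 243 and 85, Tgtp2 518 and 157, and Ifi47 381 and 174. All 7 members fell relative to PBS tumors with 1 dose, where 1.05% of all genes were called lower. Irgm2 fell by 3.61 ± 0.27 on the log2 scale (12.2-fold lower, adjusted p = 0.000147) and the log2 fold change of Irgm1 was -3.74 ± 0.37 (13.3-fold lower, adjusted p = 0.000469). The effectors had larger values, -4.46 ± 0.41 for Ifi47, -5.11 ± 0.54 for Iigp1, -5.38 ± 0.63 for Tgtp2 and -6.07 ± 0.76 for Tgtp1 (67.4-fold lower, adjusted p = 0.00136; edgeR), and Igtp was at -4.80 ± 0.45. The 7 genes took 0.0102% and 0.0045% of all counts. All 7 stayed called when any 1 of the 4 tumors was left out. The number of injections of PBS, tumor age and collection cannot be told apart here.

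Other interferon-related genes were lower in the same PBS tumors. Irf1, an interferon-induced transcription factor, fell, with a log2 fold change of -2.84 ± 0.31. Stat2 and Irf9, transcription factors of the type I pathway, fell as well (-1.38 ± 0.20 and -1.13 ± 0.11; adjusted p from 0.000469 to 0.00321 for these 3 genes, edgeR). Ifng, which encodes interferon gamma, had 39 and 65 normalized counts after 1 PBS dose and 2 and 0 after 2, with an adjusted p of 0.0911. Markers of T and NK cells, a main source of interferon gamma, summed to 359 and 463 after 1 dose and to 105 and 60 after 2, with 1 of 8 (Cd3e) called lower and none at 0. Keratinocyte markers, a sign of skin in the sample, summed to 4831 and 2596 after 1 dose and to 19 and 6 after 2, where 3 of 5 were at 0 in 1 tumor. Their median log2 fold change was -7.68, further from 0 than that of any member, with 0 of 5 called. Macrophage and monocyte markers summed to 11329 and 14448 after 1 dose and to 7142 and 6190 after 2, and the melanocyte sum moved from 869150 and 846984 to 990019 and 1001244. The part of these cells in the fall was not tested.

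The members were high after 2 doses of exoCDN2. Irgm1 had 50903 and 36619, Irgm2 22628 and 13016, Igtp 40125 and 21715, and Iigp1 25698 and 16757. Tgtp1 had 48531 and 28031, Tgtp2 44844 and 27939, and Ifi47 14417 and 9151. Set against PBS tumors with 2 doses, all 7 members rose, by log2 fold changes from 5.28 ± 0.40 for Irgm1 (39.0-fold) to 7.88 ± 0.81 for Tgtp1 (236-fold), with edgeR adjusted p-values from 6.78e-07 to 6.43e-05 and a background of 8.87% of genes called higher. Set against the exoCDN2 tumors with 1 dose, no member was called changed, 0 had an unadjusted p under 0.05 and DESeq2 called 0, with 5.10% of all genes called higher. The difference between the doses was -0.17 for Irgm1 (95% confidence interval -0.90 to 0.56), 0.05 for Igtp (-0.77 to 0.88) and -0.01 for Ifi47 (-0.78 to 0.76). It was widest for Tgtp1, at 1.32 (-0.01 to 2.64), where both tumors with 2 doses lay above both with 1. Against PBS with 2 doses, exoCDN2 tumors also had more of other cells' markers. T and NK cell markers summed to 2543 and 1736 against 105 and 60 (7 of 8 called higher), macrophage and monocyte markers to 30472 and 19653 against 7142 and 6190 (4 of 8), and neutrophil markers to 2489 and 740 against 83 and 65 (5 of 6). Against 1 dose of exoCDN2, 6 of 8 T and NK cell markers were called higher, and the part of these cells was not tested.

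With CDN2 (20 µg), 2 doses left Irgm1 at 34006 and 38314, Irgm2 at 11477 and 12692, Igtp at 27423 and 24654, and Iigp1 at 13810 and 13195. Tgtp1 had 14601 and 21942, Tgtp2 17067 and 20136, and Ifi47 9489 and 8361. All 7 members rose relative to PBS with 2 doses, from 4.85 ± 0.29 for Irgm2 (28.8-fold) to 6.77 ± 0.78 for Tgtp1 (109-fold), with edgeR adjusted p-values from 9.16e-07 to 7.58e-05, in a comparison where 20.0% of all genes were called higher. All 7 had lower means than after 1 dose of CDN2 (20 µg), with a median log2 fold change of -1.10, beside -0.002 for all genes. In edgeR, 3 were called lower, Iigp1 by -1.45 ± 0.46 and Ifi47 by -1.14 ± 0.36 (both adjusted p = 0.0279), and Tgtp2 by -1.44 ± 0.53 (adjusted p = 0.0495), against 6.36% of all genes. That count was 0 without the second tumor of the 1-dose group or the first of the 2-dose group, 1 without the second tumor of the 2-dose group and 2 without the first of the 1-dose group. Neutrophil markers summed to 566 and 1335 after 1 dose of CDN2 and to 38317 and 8337 after 2, melanocyte markers to 934697 and 945995 and then to 326315 and 543519, and their part was not tested. Against PBS with 2 doses, 6 of 6 neutrophil, 6 of 8 T and NK cell and 6 of 8 macrophage and monocyte markers were called higher with CDN2. The macrophage marker Mrc1 was called lower.

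The comparison of exoCDN2 (0.1 µg) with CDN2 (20 µg) after 2 doses gave positive differences for all 7 members, from 0.30 for Igtp (95% confidence interval -0.52 to 1.12) to 1.11 for Tgtp1 (-0.20 to 2.43). None was called (lowest adjusted p = 0.0662, for Irgm2, edgeR), with 7.34% of all genes called higher. DESeq2 called 0 of the 7 members and 3373 of all genes. An unadjusted p under 0.05 (edgeR) was found for 1 of the 7 members and for 8173 of the 16927 genes tested. Such values were thus less frequent among the members than among all genes. The exoCDN2 and CDN2 tumors did not overlap for Irgm2, Iigp1, Tgtp1 and Tgtp2, and the share of all genes without overlap is not given here. T and NK cell markers summed to 2543 and 1736 with exoCDN2 and to 583 and 934 with CDN2, none at 0, with 3 of 8 called higher. Neutrophil markers summed to 2489 and 740 against 38317 and 8337, with 5 of 6 called lower, and the part of these cells was not tested.

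Whether the fold change against PBS differed between 1 and 2 doses was tested directly. The change from 1 to 2 doses relative to the change in PBS was positive for every member. It ranged for exoCDN2 from 3.29 ± 0.35 on the log2 scale (Irgm2) to 7.39 ± 0.95 (Tgtp1), and for CDN2 (20 µg) from 2.78 ± 0.35 (Irgm2) to 4.97 ± 0.91 (Tgtp1). All 7 members were called higher in both, against 5.12% of genes for exoCDN2 and 11.7% for CDN2, and both tests use the same 4 PBS tumors. Taken alone, the members' median log2 change from 1 to 2 doses was -0.008 for exoCDN2, -1.10 for CDN2 (20 µg) and -4.80 for PBS. The size of the fold depended on the control. When the PBS tumors with 1 dose served as the control for the tumors with 2 doses, a setting added after the values were seen, 3 members were called higher with exoCDN2 (Irgm1 1.55, Irgm2 1.86 and Igtp 1.76) and 3 with CDN2 (1.22, 1.24 and 1.46).

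**Figure D3:**
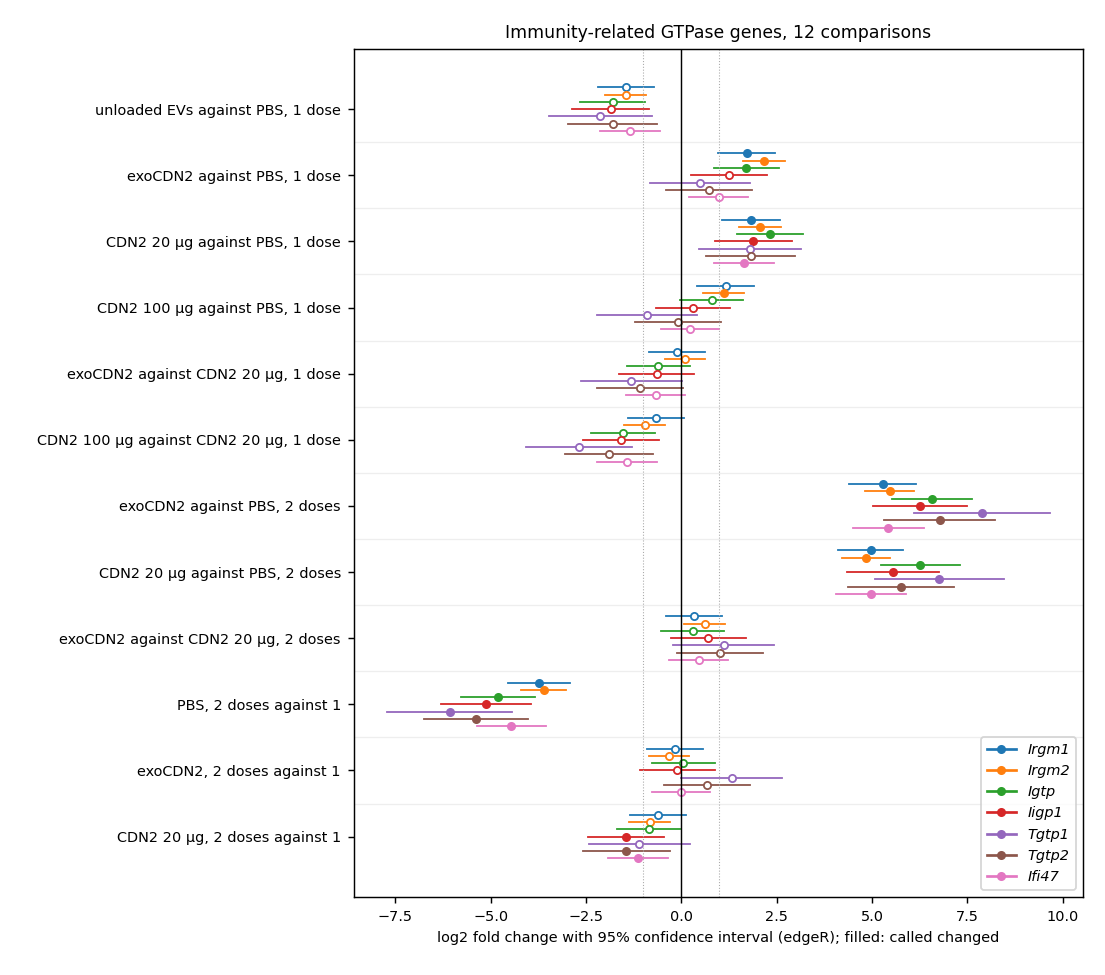
Log2 fold changes of the 7 genes with 95% confidence intervals from edgeR in 12 comparisons, with filled points for genes called changed and dotted lines at a ratio of 2 either way. The fold changes against PBS after 2 doses (4.85 to 7.88) and the fall of PBS itself (-6.07 to -3.61) stand far from 0. Those for 2 doses of exoCDN2 against 1 run from -0.32 to 1.32, with none called.

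The proportions of the members varied between tumors. The mean log2 level of the 3 regulatory genes minus that of the 4 effectors was -0.12 and -0.17 in PBS tumors with 1 dose, and 0.83 and 1.55 in PBS tumors with 2 doses. It was also high after 1 dose of exoCDN2 (1.17 and 0.68) and of CDN2 at 100 µg (1.07 and 0.92), and lower after 1 dose of CDN2 at 20 µg (0.26 and 0.05) and 2 doses of exoCDN2 (0.26 and 0.23). It was 0.71 and 0.62 after 2 doses of CDN2 at 20 µg, and 0.40 and -0.10 with unloaded EVs. These values are a description, and no test was run on them. An exact permutation test of 2 tumors against 2 cannot give a two-sided p below 0.333. The ratio of Tgtp1 to Tgtp2 normalized counts, which depends on how shared reads were divided, ran from 0.441 and 0.456 with CDN2 at 100 µg to 1.08 and 1.00 after 2 doses of exoCDN2. When both genes were summed before the test, the sum was called in 6 comparisons: exoCDN2 against EVs (2.56), both agonists against PBS after 2 doses (7.24 and 6.17), PBS with 2 doses against 1 (-5.65) and both changes relative to PBS (6.61 and 4.36).

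**Figure D4:**
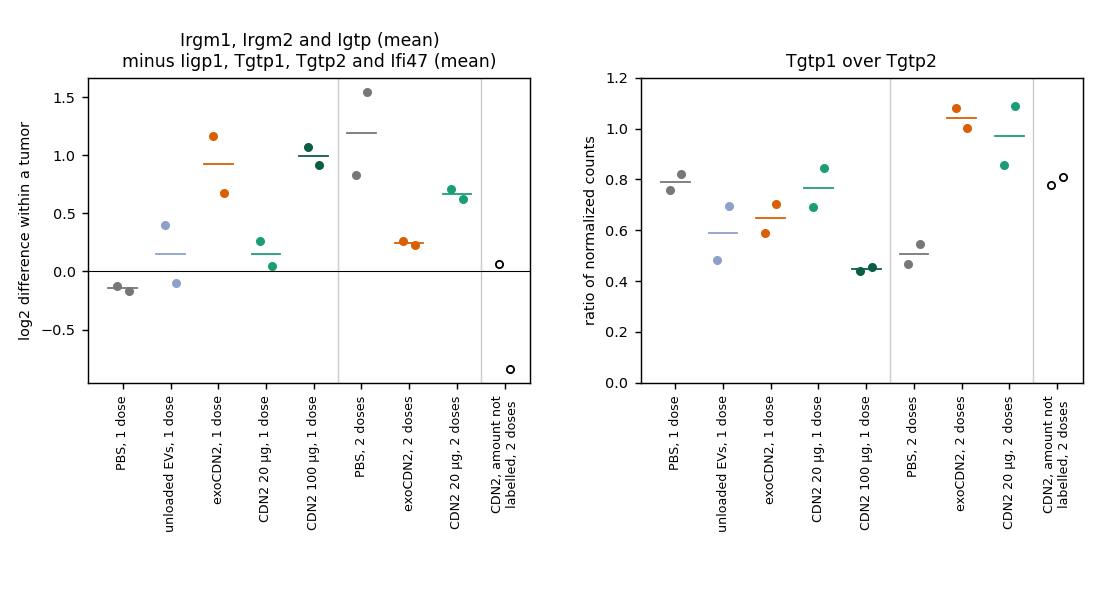
Left, the mean log2 normalized count of Irgm1, Irgm2 and Igtp minus that of Iigp1, Tgtp1, Tgtp2 and Ifi47 within each tumor; right, the ratio of Tgtp1 to Tgtp2. Points are tumors, lines are group means and open points are the tumors with no labelled amount; the difference is near 0 in PBS tumors with 1 dose and 0.83 and 1.55 in PBS tumors with 2.

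The upstream interferon genes followed different courses from the members in part. Ifnb1 had 5 normalized counts in each PBS tumor with 1 dose, 1021 and 857 after 1 dose of exoCDN2, and 580 and 2303 after 1 dose of CDN2 (20 µg). After 2 doses it had 6 and 2 with exoCDN2 and 457 and 45 with CDN2 (20 µg), although the members stayed high in both groups. Ifng had 192 and 348 after 1 dose of exoCDN2 and 211 and 133 after 2. Irf1 had 35749 and 43043 after 1 dose of exoCDN2 and 13966 and 8338 after 2. Of the 10 genes listed for type I interferon signalling, 5 were called higher after 1 dose of exoCDN2 (Ifna4, Ifnb1, Irf7, Irf9 and Stat2) and 3 after 2 (Irf7, Irf9 and Stat2), each against PBS of the same number of doses. With CDN2 (20 µg) the count was 5 after 1 dose (the same 5 genes) and 5 after 2 (Ifnar2, Ifnb1, Irf7, Irf9 and Stat2). Of the 9 genes listed for interferon gamma signalling, 3 were called higher after 1 dose of exoCDN2 (Irf1, Jak2 and Socs1) and 6 after 2 (Ciita, Ifng, Irf1, Irf8, Jak2 and Socs1), and with CDN2 (20 µg) 2 and 4. The shares of all genes called higher in these comparisons were 2.20% and 8.87% for exoCDN2 and 2.26% and 20.0% for CDN2, and the PBS controls themselves differed, with Ifng at 39 and 65 after 1 dose and 2 and 0 after 2. In the direct comparison of 2 doses of exoCDN2 with 1, 0 of the 9 were called higher and 2 lower (Irf1 and Socs1), with a median log2 fold change of -0.35, where 2.34% of all genes were called lower. The shares of all genes called lower in the comparisons with PBS after 1 dose were 0.425% for exoCDN2, 0.886% for CDN2 (20 µg) and 0.620% for CDN2 (100 µg), and Ciita was the 1 gene of both lists called lower, at 100 µg.

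**Figure D5:**
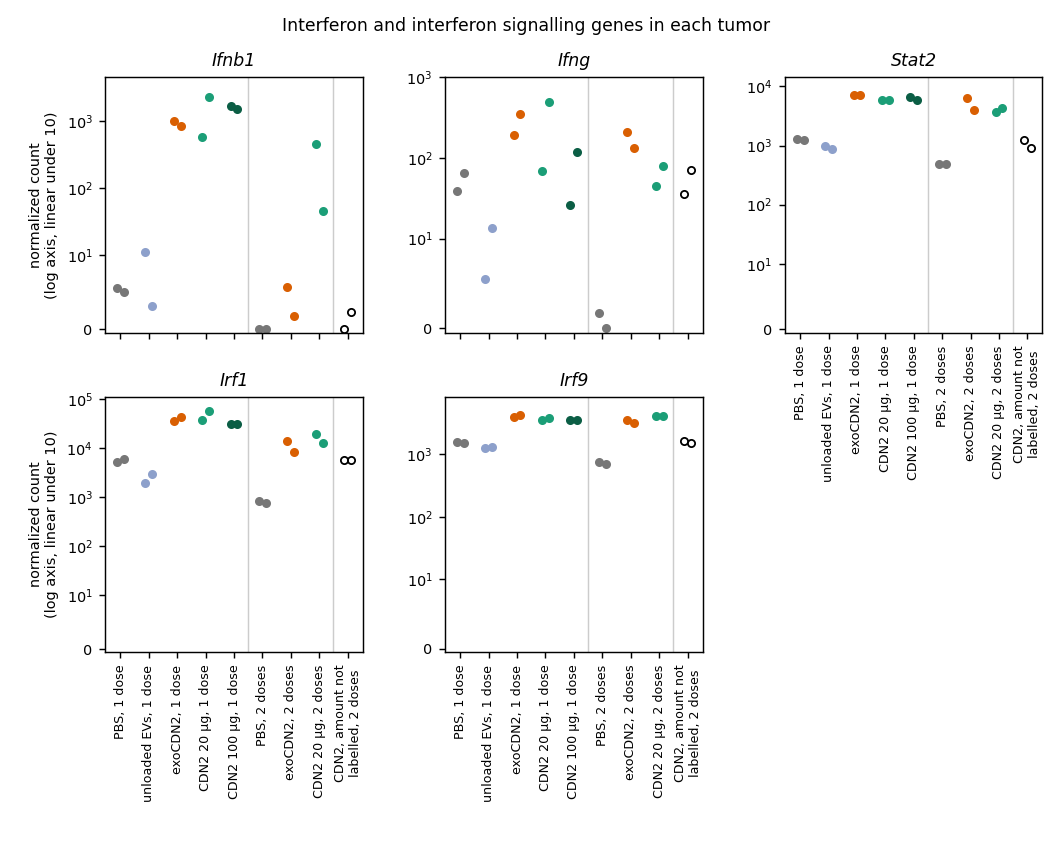
Normalized counts of Ifnb1, Ifng, Stat2, Irf1 and Irf9 in each of 18 tumors, on an axis that is logarithmic above 10 and linear below, with 1 point per tumor and open points for the tumors with no labelled amount. Ifnb1 is at 857 and 1021 after 1 dose of exoCDN2 and at 2 and 6 after 2, while Ifng is at 192 and 348 after 1 dose and at 211 and 133 after 2.

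Of 9 further genes of the IRG family, 8 passed the filter on low counts (all but Irgc1). After 1 dose, 3 of the 8 were called higher with exoCDN2 (Gm5431 2.75, 9930111J21Rik1 2.44 and 9930111J21Rik2 1.94 on the log2 scale) and 5 with CDN2 (20 µg), where Gm12250 had 2.89 and Gm4951 2.27. The shares of all genes called higher there were 2.20% and 2.26%. After 2 doses, 7 of 8 were called higher with either agonist, by up to 7.90 for Gm12185 with exoCDN2, and F830016B08Rik had 6.38 with each. Of all genes, 8.87% were called higher with exoCDN2 and 20.0% with CDN2 (20 µg). Of the same 8, 6 fell in PBS tumors with 2 doses, among them Gm12185 (-5.28), Gm4951 (-5.39) and Gm12250 (-4.70), against 1.05% of all genes. In the direct comparison of the CDN2 amounts, Gm12250 (-2.66) and Gm4951 (-2.38) were called lower at 100 µg, against 0.224% of all genes. After 2 doses, 9930111J21Rik1 and Gm12185 of the 8 were called higher with exoCDN2 than with CDN2 (20 µg), where no member was called. The share of all genes called higher there was 7.34%. Irgq, a family member known not to depend on interferon, had 817 to 1401 normalized counts in all 18 tumors and log2 fold changes between -0.52 and 0.58, with no call in any of the 15 comparisons. Gm12185 overlaps Tgtp1 and shares windows of sequence with it, so its counts are not separate from those of Tgtp1.

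The guanylate-binding proteins, larger interferon-induced GTPases that join the IRG proteins at the vacuole were measured through 11 genes. Of these, 4 were called higher after 1 dose of exoCDN2 and 4 after 1 dose of CDN2 (20 µg), 11 after 2 doses of exoCDN2 and 10 after 2 doses of CDN2 (20 µg), and 8 fell in PBS tumors with 2 doses, beside 2.20%, 2.26%, 8.87%, 20.0% and 1.05% of all genes. The members' counts in the same comparisons were 3, 5, 7, 7 and 7 of 7. Where no member was called, 4 guanylate-binding protein genes were higher and Gbp5 lower after 2 doses of exoCDN2 than after 1, and 3 (Gbp11, Gbp2b and Gbp7) were higher with exoCDN2 than with CDN2 (20 µg) after 2 doses. Their median log2 fold change was -4.08 in that PBS comparison, beside -4.80 for the 7 members and 0.01 for all genes tested. The autophagy conjugation genes, whose products govern where IRG proteins gather, had a median of -0.02 there, 0.08 after 2 doses of exoCDN2 and 0.46 after 2 doses of CDN2 (20 µg), where Gabarap and Map1lc3a of the 11 genes were called higher.

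Across the 16 labelled tumors, log2 CPM of the members correlated with one another at r from 0.935 (Irgm2 and Tgtp1) to 0.998 (Iigp1 and Ifi47). The 5 other genes most like the mean of the members were Gbp6 (r = 0.997), Olfr56 (0.994), Gm4951 (0.992), Gm12250 (0.989) and Gbp2 (0.986), out of 16920 genes. Gbp6 and Gbp2 encode guanylate-binding proteins, and Olfr56 overlaps 3 members. Ifng had r = 0.942, Irf9 0.924, Irf1 0.907 and Stat2 0.891, while Ifnb1 had 0.624 and Irgq -0.188. These correlations are over tumors that share groups, and the low PBS tumors with 2 doses weigh on all of them.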

How the data were processed

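The authors sequenced tumor mRNA (Illumina HiSeq, 2 × 150 bp) and ran OmicSoft ArraySuite on the quality-filtered reads, with OSA as the aligner (GRCm38) and RSEM, on gene models of Ensembl R88, for the expected counts. The deposited values are these expected counts without normalization, and between 8.75% and 12.68% of the values in a tumor are not whole. The labels do not say whether tumors of a group come from separate mice (the study calls them biological replicates), so p-values measure the spread between these tumors. RSEM divides shared reads by estimation, which makes Tgtp1 and Tgtp2 uncertain. Symbols and positions came from GENCODE M21, which named 50376 of 50600 identifiers. The labels call the free agonist CL656, taken here as CDN2.

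Counts were rounded and tested with edgeR 4.0.16 in R 4.3.3: filterByExpr (minimum count 10, minimum total 15), TMM, 1 quasi-likelihood model over the 16 tumors of 8 groups, and Benjamini-Hochberg adjustment over 16927 genes. Calls needed an adjusted p below 0.05 together with more than a 2-fold ratio, as in the study's methods, which used DESeq2. Normalized counts used DESeq2 size factors (1.42.0) over all 18 tumors, and log2 values a pseudocount of 1. The code was tested on simulated data. Promoter alignments used Biopython 1.88.

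The members and all gene lists (further IRG genes, interferon signalling, guanylate-binding proteins, autophagy conjugation, markers of 10 cell types) were chosen with earlier results of these data known. All 7 members are named in every comparison, further IRG genes and 5 interferon genes (Ifnb1, Ifng, Stat2, Irf1 and Irf9) with values, and the 5 genes most correlated with the members' mean over 16 tumors. Alternatives were DESeq2, RLE factors, no filter, only the groups compared, pooled PBS, no limit on the ratio, the replicate number as a block, each tumor left out, and Tgtp1 and Tgtp2 summed. PBS tumors of the other number of doses were added as a control after the data had been seen. Protein features were not analysed here, and 1 gene was left out of the interferon lists and is not reported here.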

Additional observations from a re-analysis of the deposited data

Results flagged for a closer look

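The fold change of each agonist against PBS differed between 1 and 2 doses for every member, by a test of the difference itself (edgeR, log2 change from 1 to 2 doses relative to the change in PBS). For exoCDN2 the differences were 3.56 for Irgm1, 3.29 for Irgm2, 4.86 for Igtp, 5.01 for Iigp1, 7.39 for Tgtp1, 6.04 for Tgtp2 and 4.45 for Ifi47. For CDN2 (20 µg) they were 3.13 for Irgm1, 2.78 for Irgm2, 3.95 for Igtp, 3.66 for Iigp1, 4.97 for Tgtp1, 3.94 for Tgtp2 and 3.32 for Ifi47. The same 4 PBS tumors enter all of them, and the part of the PBS tumors in them is shown by the direct comparison of PBS with 2 doses against 1, where all 7 members fell. From 1 to 2 doses, the members' median log2 fold change was -4.80 in PBS, -0.008 with exoCDN2 and -1.10 with CDN2 (20 µg).

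The 2 tumors given 2 doses of CDN2 without a labelled amount, which no comparison uses, had more of every member than either PBS tumor with 2 doses. Their normalized counts were 14528 and 15984 for Irgm1, 4571 and 3032 for Irgm2, 7814 and 8445 for Igtp, 7974 and 13452 for Iigp1, 9160 and 17157 for Tgtp1, 11799 and 21160 for Tgtp2 and 4056 and 6348 for Ifi47. In these tumors Ifnb1 was at 0 and 2 and Ifng at 35 and 71, and the T and NK cell markers summed to 403 and 493. For comparison, Irgm1 had 14059 and 16131 in PBS tumors with 1 dose and 34006 and 38314 in tumors with 2 doses of CDN2 (20 µg). Nothing was tested on these 2 tumors.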

How the results depend on the processing

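All 7 members were called in both agonist comparisons with PBS after 2 doses, in PBS with 2 doses against 1, and in both changes relative to PBS under DESeq2, RLE factors, no filter, only the groups compared, no limit on the ratio, the replicate block and every omission of 1 tumor. In an omission that leaves a group with 1 tumor, that tumor is assumed to vary like those of the other groups.

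With the PBS tumors pooled, the number of members called after 1 dose was 1 with exoCDN2, 1 with free CDN2 at 20 µg and 0 at 100 µg, and after 2 doses it was 1 with exoCDN2 and 2 with CDN2 (20 µg). Over all genes, the pooled test called 685, 930, 600, 1654 and 4933 in that order. The test without pooling called 444, 532, 413, 1920 and 5177. Tgtp1 (0.083) and Tgtp2 (0.88) turned positive at 100 µg with pooling. Pooling puts the low and the high PBS tumors in 1 group by construction. With PBS of the other number of doses (added after the data had been seen), 7 members were called higher for each of the 4 treatments with 1 dose, and 3 each for exoCDN2 and CDN2 (20 µg) after 2 doses. The EV log2 fold changes then were 2.29 for Irgm1, 2.14 for Irgm2, 3.00 for Igtp, 3.26 for Iigp1, 3.96 for Tgtp1, 3.58 for Tgtp2 and 3.11 for Ifi47, and those at 100 µg were 5.18 for Tgtp1 and 5.30 for Tgtp2. So the sign for unloaded EVs depends on which PBS group is used. That control differs from the EV tumors in injections, tumor age and collection. Its members were 12.2 to 67.4-fold lower than in PBS tumors with 1 dose. The change of sign restates this fall by construction and is no separate observation on the EVs.

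DESeq2 called 4 members for unloaded EVs, 2 for CDN2 (100 µg) and 5 for CDN2 (100 µg) against 20 µg, beside 31, 660 and 398 of all genes. The same comparisons gave 7, 2 and 5 members with no filter, beside 227, 1178 and 800 of all genes. Without the filter there were also 2 for exoCDN2 against CDN2 (20 µg) after 1 dose, 2 after 2 doses and 1 for exoCDN2 with 2 doses against 1. The counts over all genes there were 707, 3893 and 1886. Over all genes, no filter called 227 for unloaded EVs where the filtered test called 0 and DESeq2 31; the cause was not tested. With only the groups compared, the member counts were 2 for CDN2 (100 µg), 5 for 100 µg against 20 µg and 0 for CDN2 (20 µg) with 2 doses against 1. Over all genes that setting called 1352, 335 and 629.

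Leaving out 1 tumor gave 1 member each time for exoCDN2 after 1 dose, 1 to 5 for CDN2 (20 µg), 0 each time for CDN2 (100 µg) and 0 to 2 for CDN2 (20 µg) with 2 doses against 1. It turned the sign of some uncalled log2 differences, which ranged from -0.31 to 0.996 for Tgtp1 (exoCDN2 against PBS, 1 dose) and from -0.32 to 0.11 for Tgtp2 (CDN2 at 100 µg against PBS). For exoCDN2 against CDN2 (20 µg) the ranges were -0.34 to 0.20 for Irgm1 and -0.052 to 0.24 for Irgm2 after 1 dose, and -0.19 to 0.70 for Igtp after 2. For exoCDN2 with 2 doses against 1 they were -0.44 to 0.050 for Irgm1, -0.78 to 0.030 for Irgm2, -0.46 to 0.43 for Igtp, -0.45 to 0.30 for Iigp1 and -0.38 to 0.29 for Ifi47.

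Replicate numbers run across groups in the labels. Deviations of same-numbered tumors correlated at -0.183 to 0.322 over 28 pairs of groups (mean 0.002, 4 over 0.1), so the tumors share a number and not a pairing. With the replicate block, 4 members in place of 5 were called for CDN2 (20 µg) after 1 dose (Iigp1 adjusted p = 0.0602, edgeR) and 2 in place of 3 for its change from 1 to 2 doses (Tgtp2 adjusted p = 0.0603), and no other call on a member changed.

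At these depths every member had at least 92.6 expected counts in each tumor, so precision was limited by the number of tumors, 2 per group, and not by counting.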

Other observations

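The order of the tumors within a group, noticed after the values had been seen, differed between the interferon genes. The tumor with more Tgtp1 also had more Ifng in 8 of 8 groups, and the same held for Tgtp2 and Irgm2, while Irgm1, Igtp, Iigp1 and Ifi47 shared the order of Ifng in 7 of 8. With Ifnb1 the order was shared in 2 or 3 of the 7 groups whose tumors differed in it. Irf1 shared the order in 8 of 8 groups with Igtp, Iigp1 and Ifi47, in 7 with Irgm2, Tgtp1 and Tgtp2 and in 6 with Irgm1. Irf9 shared it in 5 to 7 and Stat2 in 4 to 6 of 8. In some groups the order rests on few counts. Ifng was at 0 and 2 in PBS tumors with 2 doses and at 5 and 14 with EVs. Ifnb1 was at 5 and 5 in PBS tumors with 1 dose, 3 and 11 with EVs and 2 and 6 after 2 doses of exoCDN2. How many of all genes share such an order was not counted. No test was run on 2 tumors a group, and members that vary together are not separate observations.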
